A study of Mus musculus with 6 samples.

Results

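The Myc network is a set of transcription factors that share the partner Max or its relative Mlx. Its 9 genes examined here, Myc, Mycn, Max, Mxd1, Mxd3, Mxd4, Mxi1, Mnt and Mlx, were taken by symbol from the deposited expression table, which gave values for 21456 gene symbols, and all 9 had values. The table holds RPKM, read counts scaled to transcript length and to library size, and the rows of a symbol were summed. The libraries are poly(A) RNA of sorted ureteric epithelium from kidneys of CFW mouse embryos at E16.5, a stage of ongoing branching. Tip cells were Wnt11RFP+;Hoxb7GFP+ and stalk cells were Wnt11RFP-;Hoxb7GFP+, with 3 libraries each. Cells of both groups carried the green Hoxb7 reporter of the ureteric lineage, and the red Wnt11 reporter of the branching tips separated them. The sort therefore rests on reporter activity, and whether animals were pooled is not given in the sources used here.

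Myc-family proteins (Myc, Mycn and Mycl) bind DNA only as a dimer with Max, at E-boxes with the core CACGTG, and they raise transcription of genes for growth, ribosome production and cell division. The Mxd proteins, Mxi1 and Mnt compete for Max and recruit the Sin3 histone deacetylase complex to the same sites. Mlx pairs with Mlxip and Mlxipl, which respond to glucose metabolites, and also with Mxd1, Mxd4 and Mnt. In the developing mouse kidney, reduced Mycn dosage is known to leave a small kidney with fewer branches.

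The stretches upstream of the members' start sites were read for the network's own E-box and for a match to the E2F type, E2F factors being regulators of S phase genes. RefSeq windows (build GRCm38.p6, the same assembly as mm10) of 250 bases before the start were found for 8 of 9 members, in 10 windows, since Mxi1 has 3. No window was found for Myc, so its upstream stretch was not searched. CACGTG, which reads the same on both strands, stood in 3 members (Mxd4, Mnt and Mlx) and in 6.02% of the 32851 windows of all genes. TTTNNCGC, searched on both strands, stood in 1 member (Mycn) and in 4.28% of all windows. The E-box stretches are given as 30 bases each, since they carry the network's own motif, with the match in capitals. They lie on the minus strand at chr5:34187912-34187941 (Mxd4), and on the plus strand at chr11:74830789-74830818 (Mnt) and chr11:101087238-101087267 (Mlx).
Mxd4: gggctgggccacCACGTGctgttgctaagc
Mnt: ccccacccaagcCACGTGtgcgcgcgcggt
Mlx: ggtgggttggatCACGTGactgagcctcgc
The match begins 219 bases before the start of Mxd4, 123 bases before that of Mnt and 40 bases before that of Mlx.

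Mycn was the member with the largest difference between tip and stalk, and its stretch is shown from 250 to 101 bases before the start, on the minus strand at chr12:12941937-12942086.
Mycn: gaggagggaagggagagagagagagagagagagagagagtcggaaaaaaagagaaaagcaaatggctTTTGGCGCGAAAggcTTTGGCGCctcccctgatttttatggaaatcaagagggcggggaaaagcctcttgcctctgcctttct
The capitals mark 3 matches to TTTNNCGC, which begin 183, 179 and 168 bases before the start. The first pair overlap on opposite strands. A match of letters is a description of the sequence and no evidence of binding.

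In tip cells Mycn and the antagonist Mxd3 were higher, and in stalk cells the antagonists Mxd4 and Mxi1 were higher. Myc, Mnt and Mxd1 did not pass the test and differed more between libraries of a group than between the groups. Max and Mlx lay just short of the threshold, toward stalk. By limma, 2 of 9 members were thus higher in tip, beside 26.1% of the 12532 genes tested, and 2 of 9 higher in stalk, beside 22.5% of all genes. The count toward stalk was 1 when tip replicate 1 or 2, or stalk replicate 2 or 3, was left out. The share of members called in either direction, 4 of 9, was near the background of 48.6%. Libraries of the groups did not overlap for 2 members with tip above stalk (31.3% of all genes) and for 4 members with stalk above tip (26.5% of all genes, 57.8% in either direction). All 9 members passed the filter of a mean of 1 RPKM. Fold changes below are tip minus stalk on log2(RPKM + 1), which understates the change of low genes, and adjusted p-values are limma's, corrected over all genes tested. Nothing states that libraries came from separate animals, so the p-values cover only sample-to-sample spread, possibly technical. In bulk libraries, fewer cells with a transcript and less transcript per cell cannot be told apart.

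**Figure D1:**
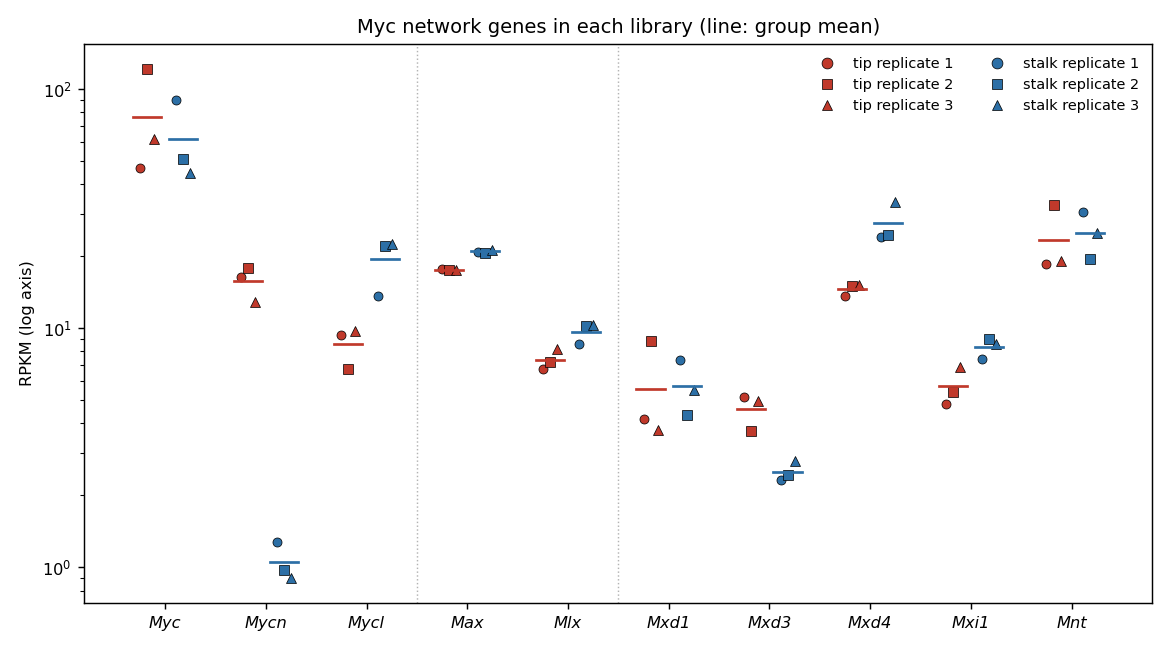
RPKM on a log axis of the 9 members and Mycl in each library, tip in red to the left of stalk in blue, with marker shapes for replicates and a line at each group mean. Mycn stands between 12.8 and 17.9 RPKM in tip and between 0.907 and 1.28 RPKM in stalk, while Myc spans 46.7 to 120.4 RPKM within tip alone.

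The sort was checked against markers of ureteric epithelium, and all 12 were present. Of these, 5 were called toward tip and 4 toward stalk, beside 26.1% and 22.5% of all genes tested. Wnt11, whose reporter defined the sort, stood at 930, 423 and 726 RPKM in tip and at 1.92, 8.67 and 24.5 RPKM in stalk. On the leading component of all tested genes (82.9% of the variance) tip and stalk separated. On the next (9.21%), the scores of tip replicate 2 (-20.5) and of stalk replicate 1 (-25.0) were negative and those of the others positive (7.72 to 18.5). Endothelial markers were higher in stalk in 9 of 9 tested, beside 22.5% of all genes. The summed level of all 10 was 6.60 to 9.84 RPKM over the tip libraries and 47.2 to 81.5 RPKM over the stalk libraries. None of the 10 was listed at 0 throughout. Summed levels of the 10 stromal markers (4.11 to 8.68 RPKM in tip and 4.73 to 8.71 RPKM in stalk), the 10 immune markers (13.0 to 15.4 RPKM in tip and 12.3 to 19.5 RPKM in stalk) and the 10 markers of podocytes and proximal tubule (7.61 to 16.51 RPKM in tip and 7.98 to 21.0 RPKM in stalk) overlapped between the groups. Of the immune markers, 3 were tested: Cd68 was called toward tip (mean 9.46 RPKM over tip and 5.50 RPKM over stalk, adjusted p = 0.00375) and Laptm5 toward stalk (0.101 RPKM over tip and 5.03 RPKM over stalk, adjusted p = 0.000206). Sequencing depth is unknown, since the table gives RPKM only.

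Mycn (chromosome 12, 12936093 to 12941914, minus strand, mm10, GENCODE M21), the Myc-family gene named for neuroblastoma and active in embryonic progenitors, stood at 16.4, 17.9 and 12.8 RPKM in tip replicates 1 to 3 and at 1.28, 0.975 and 0.907 RPKM in the stalk libraries. Every tip library was far above every stalk library. The ratio of mean RPKM was 14.9 (15.7 ± 2.60 in tip and 1.05 ± 0.198 in stalk, SD, n = 3 each), and the log2 fold change was 3.02 (SE 0.16, adjusted p = 7.87e-06). All 3 rows of the gene pointed the same way: the leading row, with 88.0% of the level, had a mean of 13.7 RPKM over tip and 1.03 RPKM over stalk, and the next had 1.02 RPKM over tip and 0.00472 RPKM over stalk. In stalk, Mycn had the lowest level of the 9 members, below Mxd3 without overlap. In tip it ranked 4 of 9, and its libraries overlapped those of Max above it and Mxd4 below it.

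Nephron progenitors, which lie against the ureteric tip, also express Mycn, so their markers are given beside it. Cited1 and Crym were higher in tip and Hoxd11 was not called. The other 7 of the 10 markers fell below the filter. The defining gene Six2 stood at 0.513, 0.718 and 0.683 RPKM in the tip libraries and at 0.0770, 0.356 and 0.00956 RPKM in the stalk libraries. Gdnf, the ligand made by these cells, was at 0.142 RPKM or less in every tip library and 0.0781 RPKM or less in every stalk library. The summed level of all 10 markers was 5.74 to 8.496 RPKM in tip and 2.44 to 6.001 RPKM in stalk, and their part in the difference of Mycn was not tested.

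Myc (chromosome 15, 61985391 to 61990374, plus strand), the founding member and an early-response gene, was the most abundant member in both groups. Its values were 46.7, 120.4 and 61.8 RPKM in tip replicates 1 to 3 and 89.5, 51.0 and 44.5 RPKM in stalk replicates 1 to 3. The groups overlapped, with 1 high library in each: tip replicate 2 and stalk replicate 1. The log2 fold change was 0.25 (SE 0.36, 95% interval -0.57 to 1.08, adjusted p = 0.586). The interval allows a difference of about 1 log2 unit toward tip, so equal levels are not shown. Without tip replicate 2 the value turned to -0.13.

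The level of Myc rests on 6 rows, of which the leading pair was identical in every library (each with a mean of 23.2 RPKM over tip and 16.46 RPKM over stalk). Repeated rows of this kind were found for 75 genes of the table. GENCODE M21 lists 8 Myc transcripts, and Myc-201 and Myc-205 have the same 3 exons. The rows carry no transcript name, and which rows are these transcripts is not known. With the pair counted once, in an alternative added after seeing the data, the log2 fold change was 0.16.

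Mycl, the family member outside the 9, is listed under its older symbol Mycl1 and is known for lung cancer and dendritic cells. It stood at 9.36, 6.72 and 9.71 RPKM in the tip libraries and at 13.7, 21.9 and 22.5 RPKM in the stalk libraries. Its log2 fold change was -1.07 (SE 0.21, adjusted p = 0.00342), the opposite direction to Mycn, with no overlap between the groups. The leading Myc-family gene by level was thus Myc in every library, with Mycn after it in each tip library and Mycl after it in each stalk library.

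**Figure D2:**
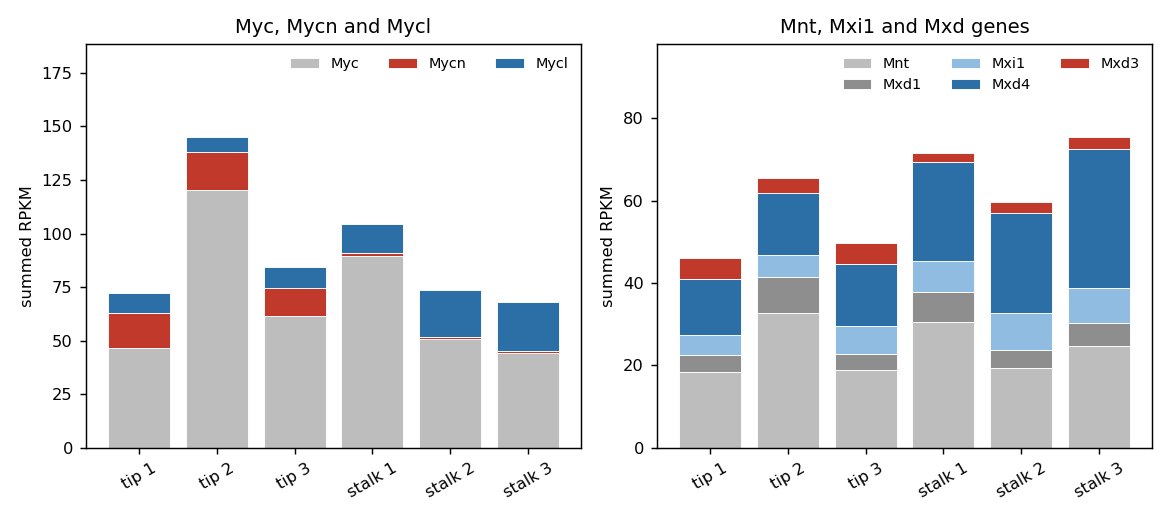
Summed RPKM per library, with tip libraries left of stalk libraries, for Myc, Mycn and Mycl (left) and for the Max-binding antagonists (right). The Mycn share is 12.3% to 22.6% of the left bars in tip and 1.22% to 1.34% in stalk.

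Because RPKM is scaled to transcript length, levels of different genes can be added within a library. The Myc level here includes both rows of its identical pair. With the pair counted once, the shares of Mycn and Mycl would be larger. Mycn made up 22.6, 12.3 and 15.2% of the summed Myc, Mycn and Mycl level in tip replicates 1 to 3, against 1.22, 1.32 and 1.34% in stalk. Mycl made up 12.9, 4.64 and 11.5% in tip, against 13.1, 29.7 and 33.1% in stalk. Stalk replicate 1 lay close to the highest tip library for Mycl. The Myc share overlapped between the groups (73.6 ± 9.29% in tip and 73.4 ± 10.8% in stalk, SD, n = 3 each). The log2 ratio of Mycn to Myc was -1.51, -2.75 and -2.27 in tip and -6.13, -5.71 and -5.62 in stalk, a difference of 3.64. Mycn alone separated the groups by more than Myc varied over all libraries, so their ratio had to separate the groups too. The exact two-sided permutation test could then only give p = 0.1, the smallest that 3 against 3 libraries allow. It adds nothing to the values. The sum of the 3 genes did not separate the groups (101 ± 38.9 RPKM in tip and 82.1 ± 19.6 RPKM in stalk, exact permutation p = 0.6).

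Max (chromosome 12, 76937269 to 76962201, minus strand), the obligate partner, had the tightest values of the network. It stood at 17.7, 17.5 and 17.5 RPKM in the tip libraries and at 20.8, 20.7 and 21.3 RPKM in the stalk libraries. The groups did not overlap, yet the log2 fold change was only -0.24 (SE 0.09, 95% interval -0.45 to -0.03) and missed the threshold (adjusted p = 0.0545, range over its alternatives 0.0146 to 0.155). The 2 rows of the gene went apart. The leading row had a mean of 12.5 RPKM over tip and 17.5 RPKM over stalk, and the lesser row had 5.01 RPKM over tip and 3.45 RPKM over stalk. With the leading row in place of the sum, the log2 fold change was -0.44 (adjusted p = 0.0259).

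Mlx (chromosome 11, 101087277 to 101092207, plus strand), the partner of the glucose-responsive factors, behaved in a similar way. It stood at 6.77, 7.20 and 8.14 RPKM in tip and at 8.54, 10.2 and 10.3 RPKM in stalk. The log2 fold change was -0.35 (SE 0.13, 95% interval -0.64 to -0.06) and also missed the threshold (adjusted p = 0.0505, range over its alternatives 0.0148 to 0.160). Its leading row had a mean of 4.99 RPKM over tip and 8.27 RPKM over stalk, and the next had 1.74 RPKM over tip and 0.960 RPKM over stalk. The leading row alone gave -0.62 (adjusted p = 0.0148). With libraries rescaled by their median ratio, both Max (adjusted p = 0.0288) and Mlx (adjusted p = 0.0231) passed toward stalk.

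The partners of Mlx differed from each other. Mlxipl, which encodes the carbohydrate response factor ChREBP, was higher in tip, at 2.50, 3.14 and 3.05 RPKM against 0.232, 1.31 and 0.519 RPKM in stalk (log2 fold change 1.26, SE 0.24, adjusted p = 0.00305). Mlxip, its paralog, averaged 12.8 ± 0.790 RPKM in tip libraries and 14.2 ± 0.520 RPKM in stalk (-0.14, adjusted p = 0.298). Mga, a large protein that pairs with Max and represses germ cell genes, averaged 12.5 ± 1.95 RPKM in tip libraries and 11.4 ± 1.61 RPKM in stalk (0.12, adjusted p = 0.533). Of the 4 network genes outside the members, 1 was therefore higher in tip and 1, Mycl, higher in stalk. Over all genes tested, 26.1% were higher in tip and 22.5% in stalk, so nothing particular to the 4 is read from their counts. Their median was -0.01 beside 0.05 over all genes. With the highest row of each symbol in place of the sum, 0 of the 4 were called toward tip.

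**Figure D3:**
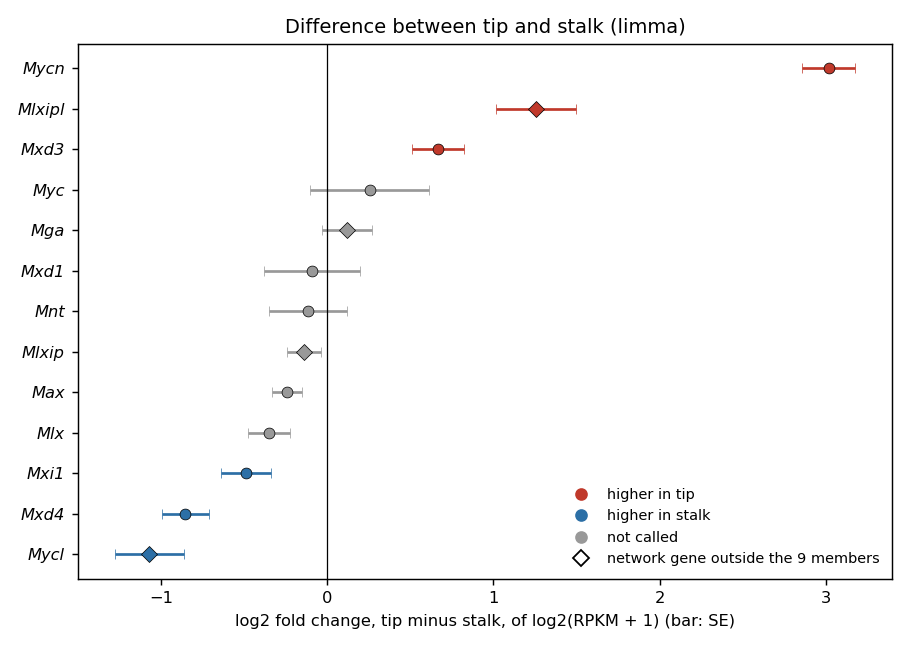
Log2 fold change with its SE (tip minus stalk, on log2(RPKM + 1)) of the 9 members (circles) and the 4 other network genes (diamonds), coloured by limma call. The values run from 3.02 for Mycn to -1.07 for Mycl.

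Among the antagonists, Mxd3 (chromosome 13, 55325168 to 55329823, minus strand) was the 1 of 5 called toward tip. It is known as the Mxd gene of dividing cells, expressed in S phase, whereas Mxd1, Mxd4 and Mxi1 are known for differentiating cells. Mxd3 stood at 5.15, 3.70 and 4.97 RPKM in the tip libraries and at 2.31, 2.44 and 2.79 RPKM in the stalk libraries. No stalk library reached the lowest tip library. The log2 fold change was 0.67 (SE 0.16, adjusted p = 0.00828), with a ratio of mean RPKM of 1.83. Genes of S phase and mitosis moved with it: 12 of 12 were called toward tip (median 1.68), beside 26.1% of all genes. Their summed level was 629 to 781 RPKM in tip and 189 to 228 RPKM in stalk. The part of this difference in that of Mxd3 was not tested.

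Mxd4 (chromosome 5, 34173883 to 34187720, minus strand), an antagonist known for quiescent and differentiating cells, went the other way. It stood at 13.6, 15.0 and 15.1 RPKM in tip and at 24.0, 24.4 and 33.7 RPKM in stalk. Stalk replicate 3 was highest, and the groups did not overlap. The log2 fold change was -0.85 (SE 0.14, adjusted p = 0.00151), and the mean was 1.88 times as high in stalk. It ranked 2 of 9 by level in stalk, where its libraries overlapped those of Mnt, and 5 of 9 in tip.

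Mxi1 (chromosome 19, 53310518 to 53375810, plus strand), the gene also known as Mxd2, was lower in tip as well. It stood at 4.80, 5.42 and 6.88 RPKM in tip and at 7.45, 8.99 and 8.56 RPKM in stalk. The log2 fold change was -0.49 (SE 0.15, adjusted p = 0.0273, range over its alternatives 0.0146 to 0.102). The call was lost without tip replicate 1 (adjusted p = 0.102), tip replicate 2 (0.0673), stalk replicate 2 (0.0774) or stalk replicate 3 (0.0769), and with no filter on low values (0.0590). Of its main rows, the leading one had a mean of 2.60 RPKM over tip and 4.80 RPKM over stalk, and the next had 3.09 RPKM over tip and 3.53 RPKM over stalk. The endothelial markers, given above, were higher in stalk with Mxd4, Mxi1 and Mycl. Of the immune markers, Laptm5 was higher in stalk and Cd68 higher in tip, and their summed level overlapped between the groups. The part of either cell type in these differences was not tested.

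Mnt and Mxd1 did not differ between the groups beyond their spread. Mnt (chromosome 11, 74830920 to 74845725, plus strand), the broadly expressed antagonist, stood at 18.5, 32.7 and 19.0 RPKM in tip and at 30.5, 19.4 and 24.8 RPKM in stalk (log2 fold change -0.11, 95% interval -0.66 to 0.43, adjusted p = 0.715). Mxd1 (chromosome 6, 86647042 to 86669161, minus strand), known from terminal differentiation, stood at 4.16, 8.82 and 3.74 RPKM in tip and at 7.33, 4.34 and 5.50 RPKM in stalk (-0.09, 95% interval -0.75 to 0.57, adjusted p = 0.819). Both had their high library in tip replicate 2 and in stalk replicate 1, as Myc had. The sign of either value turned when tip replicate 1, tip replicate 3 or stalk replicate 1 was left out.

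This order within the groups, highest in tip replicate 2 and in stalk replicate 1, was seen in 4 of 9 members (Myc, Mnt, Mxd1 and Mycn), beside 13.5% of all genes tested. These are the libraries that stood apart on the next component. In the list of immediate early and heat shock genes, a class that also reacts to cell sorting, 2 of 16 had this order, Atf3 and Hspa1b. The summed level of all 16 was 4111, 3961 and 5421 RPKM in tip replicates 1 to 3 and 5528, 8579 and 7926 RPKM in stalk replicates 1 to 3. The part of a response to sorting in this order was not tested. Of the endothelial genes, 5 of 9 had the order, of the genes repressed by Myc 6 of 13 (Cdkn1a, Cdkn2b, Gadd45a, Gadd45b, Ndrg1 and Klf6), of those activated by Myc 6 of 45, and of the S phase and mitosis genes 0 of 12. Without both libraries, Myc stood at a log2 fold change of 0.17 (adjusted p = 0.376), Mnt at -0.22 (adjusted p = 0.232) and Mxd1 at -0.25 (adjusted p = 0.271).

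Within the Mxd and Mxi1 group the balance shifted between the compartments. Mxd3 made up 18.6, 11.2 and 16.2% of the summed Mxd1, Mxd3, Mxd4 and Mxi1 level in tip, against 5.63, 6.06 and 5.52% in stalk. Mxd4 made up 49.1, 45.5 and 49.1% in tip, against 58.4, 60.8 and 66.6% in stalk. The ratio of Mxd4 to Mxd3 was accordingly 3.24 ± 0.723 in tip and 10.8 ± 1.10 in stalk (SD, n = 3 each). Each of these genes already separated the groups, in opposite directions, so their ratio had to separate them too. It is given as a description, without a test.

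The summed antagonists (the Mxd genes, Mxi1 and Mnt) stood against the sum of Myc and Mycn at a ratio of 0.731, 0.474 and 0.665 in tip and 0.789, 1.15 and 1.66 in stalk. All tip libraries were below all stalk libraries, though tip replicate 1 and stalk replicate 1 lay close together. On the log2 scale the difference was -0.90 (exact permutation p = 0.1), and -1.47 with the highest row of each symbol in place of the sum. Mycl is not in the sum of Myc and Mycn, and its share of the family level was higher in every stalk library than in every tip library. The difference of -0.90 would be smaller in size with Mycl added, a ratio that was not computed. With the identical pair of Myc rows counted once, every ratio would be higher. The antagonist sum itself overlapped between the groups (53.8 ± 10.3 RPKM in tip and 68.8 ± 8.28 RPKM in stalk, exact permutation p = 0.2), as did the sum of Myc and Mycn (exact permutation p = 0.4).

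Genes around the network were examined from lists of textbook knowledge, which were chosen with earlier results of these data known. Of 20 cofactors and stability factors of Myc, 9 were called toward tip by limma and 0 toward stalk (median 0.40), beside 26.1% and 22.5% of all genes. At an unadjusted limma p under 0.05 the counts were also 9 toward tip and 0 toward stalk. Skp2, an F-box protein of a ubiquitin ligase, stood at 21.8, 17.1 and 21.1 RPKM in tip and at 3.52, 6.29 and 5.06 RPKM in stalk (log2 fold change 1.84). The mitotic kinase Aurka, which stabilises the Mycn protein, had 1.49, the phosphatase inhibitor Cip2a, which stabilises the Myc protein, 1.39, and the acetyltransferase Kat2a 0.78. Cip2a is listed under an older symbol. The S phase and mitosis genes were higher in tip as well, and their part in the differences of these factors was not tested.

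Of 14 genes of the Sin3 corepressor complex, which the antagonists recruit, 5 were called toward tip and 1 toward stalk (median 0.16). Over all genes these shares were 26.1% toward tip and 22.5% toward stalk, and nothing particular to the complex is read from its counts. The count toward tip was 3 without tip replicate 1 or tip replicate 3, and that toward stalk was 2 without stalk replicate 1. Those higher in tip included the Sin3-binding gene Sap30 (1.14), the histone-binding gene Rbbp4 (0.75), Ing1 (0.64) and the scaffold gene Sin3a (0.43). Rbbp7, the close paralog of Rbbp4, was the 1 higher in stalk, at 76.1, 80.3 and 72.8 RPKM in tip and at 181, 212 and 198 RPKM in stalk (-1.35, adjusted p = 1.96e-05). Rbbp4 and Rbbp7 thus lay in opposite directions. Whether reads of these close paralogs were split between them was not tested.

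**Figure D4:**
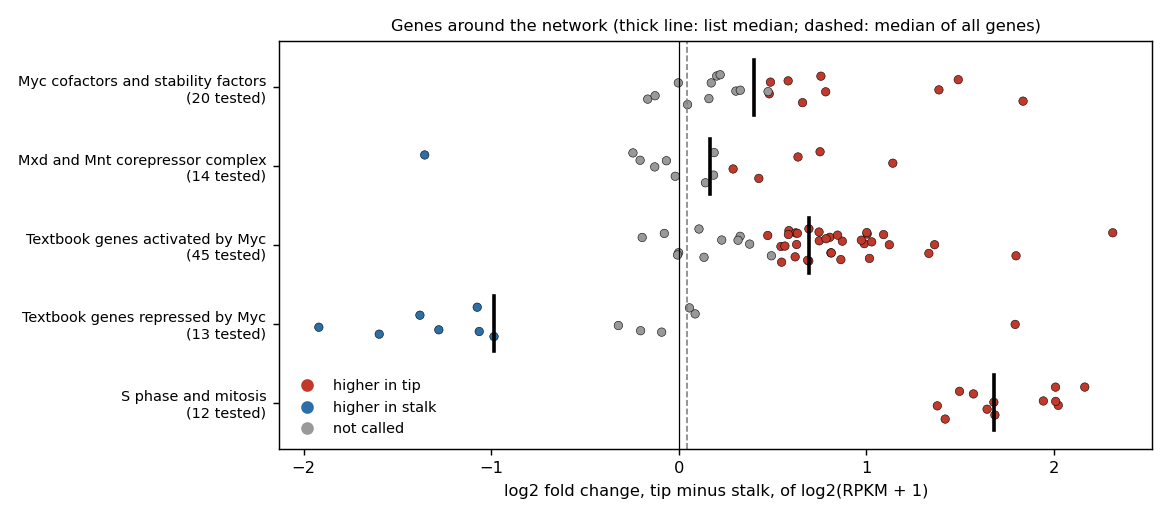
Log2 fold change (tip minus stalk, on log2(RPKM + 1)) of every tested gene of 5 lists, coloured by limma call, with the list median as a thick line and the median of all genes as a dashed line. The list medians run from 1.68 for S phase and mitosis to -0.98 for genes repressed by Myc.

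Of 45 textbook genes activated by Myc, 34 were called toward tip by limma and 0 toward stalk, beside 26.1% and 22.5% of all genes (median 0.69). At an unadjusted limma p under 0.05 the counts were 35 toward tip and 0 toward stalk. The summed level was 2257 to 2410 RPKM in tip and 1387 to 1466 RPKM in stalk. The largest changes were those of Cdca7, a chromatin factor of dividing cells (2.32), the cyclin gene Ccnd2 (1.80), the pyrimidine synthesis gene Cad (1.37) and the nucleotide kinase gene Nme1 (1.33). Many of these genes are also expressed with cell division, and the S phase and mitosis genes were higher in tip with them. The part of either in the other was not tested.

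Of 14 textbook genes repressed by Myc, 13 were tested, 1 was called toward tip and 7 toward stalk (median -0.98), beside 26.1% and 22.5% of all genes. Of the 13, 6 were highest in tip replicate 2 and in stalk replicate 1, and without both libraries 1 was called toward tip and 8 toward stalk. Ndrg1, named for its repression by Mycn, stood at 4.76, 12.8 and 9.30 RPKM in tip and at 39.6, 37.1 and 27.6 RPKM in stalk (-1.92, adjusted p = 0.000967). Its paralog Ndrg2 had -1.60, the antiproliferative gene Btg2 -1.38 and the cell cycle inhibitor Cdkn1a -1.28. Cdkn1a stood at 6.46, 24.8 and 11.4 RPKM in tip and at 49.0, 28.5 and 22.1 RPKM in stalk (adjusted p = 0.0404). Its groups overlapped, since tip replicate 2 lay above stalk replicate 3. The growth arrest gene Gas1 went against the list, with a mean of 19.7 RPKM over tip and 4.94 RPKM over stalk (1.80, adjusted p = 0.000153). With no filter on low values, 3 of the list were higher in stalk, and the reason was not tested. Btg2 also belongs to the early-response genes. In the immediate early and heat shock list, 10 of 16 were higher in stalk, beside 22.5% of all genes.

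The genes whose values across the 6 libraries were most like those of Mycn, by Pearson's r of log2(RPKM + 1) among the 9148 genes that averaged 5 RPKM or more, were Ccnd2 (0.999), the splicing-associated gene Pnn (0.998) and the transcription factor gene Sp4 (0.998). For Mycn, 1017 genes had an r above 0.95. For Myc they were Zfc3h1 (0.991), a factor of nuclear RNA turnover, the phosphatase subunit gene Ppp4r2 (0.988) and the Elongator subunit gene Elp5 (0.985), and 25 genes were above 0.95. Zfc3h1 was itself highest in tip replicate 2 (11.2 RPKM) and, among stalk, in replicate 1 (10.6 RPKM). The r spans both groups, so for Mycn it largely follows the difference between tip and stalk. All these values share 6 libraries and are given as a description.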

How the data were processed

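RNA of sorted tip and stalk cells (3 libraries each) was prepared, per the labels' protocols, with a Kapa stranded mRNA kit. RPKM values were computed and deposited by the authors in 1 table. Tools named without settings are TopHat2, Partek and bcl2fastq 2.17, on mm10, per the submitters' processing notes. Annotation and use of strand are not given in the sources used here. Of 93615 rows, 24545 held a question mark in every column and were dropped. The others were summed by symbol (21456 symbols).

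The 12532 genes that averaged 1 RPKM or more were tested on log2(RPKM + 1) with limma 3.58.1 (R 4.3.3), two-sided, with a mean-variance trend, no block, and the Benjamini-Hochberg adjustment over all genes (threshold 0.05). The procedure was also run on simulated data with independent noise and few changed genes. That setting differs from these libraries, and no conclusion is drawn from it. Ratios within libraries were compared by exact permutation tests. Members and lists were chosen with earlier results of these data known. Named were all members, the 4 other network genes, per list up to 4 called genes toward each side with the largest change, and the 3 genes most correlated with Myc or Mycn. The labels state no pairing of tip and stalk libraries. Same-numbered tip and stalk libraries deviated from their group means with correlations of -0.303, -0.335 and 0.093. With 3 libraries per group, such values cannot settle whether same-numbered libraries were paired. Correlations were positive for tip 2 with stalk 1 (0.559), tip 3 with stalk 2 (0.397), tip 1 with stalk 3 (0.334) and tip 1 with stalk 2 (0.055). Alternatives changed the pseudocount, filter, scaling, rows used, variance model, block and libraries. Counting identical rows of a gene once was added after seeing the data.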

Additional observations from a re-analysis of the deposited data

How the results depend on the processing

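Mycn, Mxd3 and Mxd4 kept their direction and their call under every alternative run in which they were tested (Mxd3 was not tested with a minimum mean of 5 RPKM). Members higher in tip numbered 1 with that minimum. Members higher in stalk, 2 with all libraries, numbered 4 with that minimum, with median-ratio scaling and with the highest row of each symbol, and 1 to 3 with 1 library left out. The other network genes higher in tip numbered 0 with that minimum and with the highest row. Corepressor genes higher in tip numbered 3 to 5, and those higher in stalk 1 to 2, with 1 library left out, and 2 were higher in stalk with median-ratio scaling. Genes repressed by Myc higher in stalk numbered 3 with no filter. The log2 ratio of antagonists to Myc and Mycn was -1.47 with the highest row, and -1.17 to -0.63 with 1 library left out. With 1 library left out, the log2 fold change of Myc ran from -0.1279 to 0.5533, negative without tip replicate 2. That of Mxd1 ran from -0.4186 to 0.1065 and that of Mnt from -0.3713 to 0.0392, both positive without tip replicate 1, tip replicate 3 or stalk replicate 1. The cause was not tested. With the replicate number as a block, 2 members were called toward tip and 2 toward stalk, as without it, and the adjusted p was 0.155 for Max and 0.0877 for Mlx. Over all genes the block gave 2716 higher in tip and 2380 higher in stalk, against 3274 and 2815. Depth is unknown, so what it limits cannot be given.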
